A study of Mus musculus with 40 samples.

Results

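The mRNA levels of gliomas that kept neuron genes near the level of normal cortex were compared with normal cortex, to see which tumor signals could be read in samples that carried much neuronal mRNA. Of 40 mouse samples measured on Affymetrix mouse genome arrays, 22 were gliomas, and 3 of these were chosen because the neuron genes Camk2a and Vsnl1 and others like them were far higher there than in the remaining 19 gliomas. They are called neuron-rich gliomas here and are named by array number. Gliomas 38 and 45 came from p53nullCKO mice (hGFAP-cre+;p53floxE2-10/floxE2-10), whose Cre-expressing cells lose p53 on both alleles. Glioma 58 came from a p53R172HCKO mouse (hGFAP-cre+;p53LSLR172H/floxE2-10), in which those cells carry a point mutant on the remaining allele. In both models Cre is driven by the human GFAP promoter, which is active in neural precursors and their progeny, so neurons and glia of the host brain can carry the recombined alleles without being tumor cells. The 5 controls were labelled normal cortex. Cortices 30, 31 and 32 were hGFAP-cre+;p53floxE2-10/+ and so keep an intact p53 allele in every cell. Cortices 33 and 34 were hGFAP-cre-;p53floxE5-6/floxE5-6 and carry no Cre. Each array is a separate sample in the labels, which do not say that they are separate animals, give no batch, and give no age for the mice.

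Gliomas are tumors of glia-like and progenitor-like cells that infiltrate the brain, so a piece of tumor can hold neurons, mature glia, vessels and immune cells of the host beside the tumor cells. The tumor cells divide, which shows in the mRNA of DNA replication and mitosis genes, and many carry genes of oligodendrocyte progenitors and neural stem cells. Loss of p53 function is known to be followed by a high level of the Cdkn2a locus, which encodes the inhibitor p16Ink4a and the p53 activator p19Arf. In whole tissue, fewer cells of a type and less mRNA per cell cannot be told apart.

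All values are log2 signals, so that a difference of 1 is a doubling of the signal. The array medians lay from 5.24 to 5.47. A signal below this level cannot be told from background, and a difference from such a level is a lower bound. A gene list score is the mean, over the measured genes of a list, of the log2 signal minus the mean of the 5 cortices. Over all 18193 genes the signals of glioma 58 correlated with those of the cortices at r from 0.969 to 0.975, glioma 38 at 0.939 to 0.948 and glioma 45 at 0.931 to 0.942, and gliomas 38 and 45 correlated with each other at 0.966. These are correlations across genes of single arrays, given as a description.

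The cortices were not alike. Cortices 30 and 34 stood apart from cortices 31, 32 and 33 in genes of other brain regions. Pmch, a neuropeptide gene of the lateral hypothalamus, was at 12.09 and 10.82 in cortices 30 and 34 and from 4.52 to 5.27 in the other cortices, and the score of 22 thalamus and hypothalamus genes was 1.28 in each of cortices 30 and 34, against -1.01 to -0.68 in the others. The score of 22 striatum genes was 1.29 in cortex 34. Tbr1, a factor of deep-layer cortical neurons, was at 5.80 and 6.39 in cortices 30 and 34 and from 8.56 to 8.83 in the others. Ttr, the abundant transport protein gene of choroid plexus, was at 4.82 in cortex 33 and between 11.75 and 13.27 in the other cortices. Genes of these regions therefore had a wide spread in the cortices, and the results below give the range over all 5 cortices.

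The genes that chose the 3 gliomas are described with no test. Camk2a, the kinase gene of excitatory neurons, was at 12.86, 12.45 and 13.38 in gliomas 38, 45 and 58, against 12.50, 13.79, 13.22, 13.43 and 12.33 in cortices 30 to 34. The groups overlapped. Vsnl1, a neuronal calcium sensor gene, was at 11.31, 11.60 and 11.65 in the neuron-rich gliomas, against 12.05 to 12.41 in the cortices, so all 3 gliomas lay below every cortex. In the 19 other gliomas Camk2a ranged from 4.72 to 9.86 and Vsnl1 from 3.33 to 10.45. The score of 34 genes of neurons, most of them excitatory, was -0.47, -0.62 and -0.37 in gliomas 38, 45 and 58, against -0.46 to 0.33 in the cortices. The next gliomas in this order, just outside the choice, were array 60 at -2.22 and array 48 at -2.74, and the lowest of all was at -5.37. No glioma lay between -0.62 and -2.22. A gap thus lay between the 3 chosen gliomas and the rest.

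**Figure D1:**
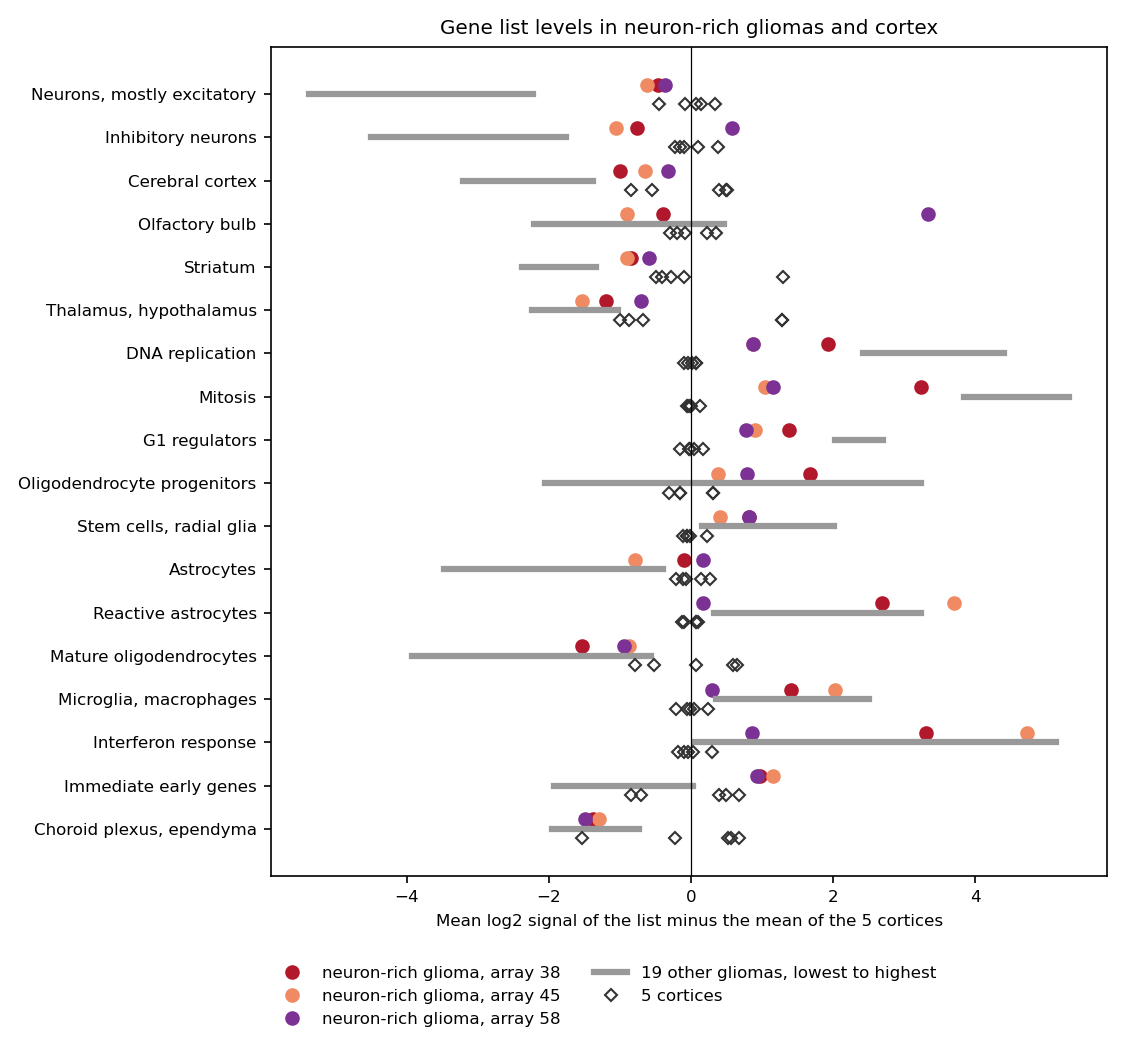
Scores of 18 gene lists (x axis, mean log2 signal of the list minus the mean of the 5 cortices) in the 3 neuron-rich gliomas (filled circles), the 19 other gliomas (grey bar, lowest to highest) and the 5 cortices (open diamonds). The neuron lists of the neuron-rich gliomas sit near the cortices and outside the range of the other gliomas, the mitosis score of glioma 38 (3.24) is far above those of gliomas 45 and 58 (1.04 and 1.16), and the olfactory bulb score of glioma 58 (3.34) stands alone.

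The levels of neuron genes were not alike in the 3 gliomas. The general neuron gene Snap25, of synaptic vesicle fusion, was at 12.94, 13.01 and 13.53 in gliomas 38, 45 and 58, against 13.30 to 13.53 in the cortices. Slc17a7, the vesicular glutamate transporter gene of cortical excitatory neurons, was at 9.47, 8.77 and 8.91 in the gliomas, against 7.31 to 9.51 in the cortices. The score of 19 inhibitory neuron genes was -0.76 and -1.05 in gliomas 38 and 45 and 0.58 in glioma 58, against -0.22 to 0.38 in the cortices. Gad1, which encodes the enzyme that makes GABA, was at 11.29 and 11.41 in gliomas 38 and 45 and at 13.28 in glioma 58, against 12.16 to 12.59 in the cortices. Glioma 58 was thus above, and gliomas 38 and 45 below, every cortex for this gene. The score of 20 cerebral cortex genes was -0.999, -0.65 and -0.32 in gliomas 38, 45 and 58, against -0.84 to 0.51 in the cortices. Tbr1 was at 6.19, 7.42 and 7.45 in the gliomas. All 3 were below cortices 31, 32 and 33, glioma 38 lay between cortices 30 and 34, and gliomas 45 and 58 lay above both of these.

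Glioma 58 carried the genes of the olfactory bulb. The score of 16 olfactory bulb genes was 3.34 in glioma 58, against -0.39 in glioma 38, -0.90 in glioma 45, -0.30 to 0.36 in the cortices and at most 0.46 in the 19 other gliomas. In glioma 58, 14 of the 16 genes were above the highest cortex. Over all genes, 25.9% were above the highest cortex in that array. The 5 genes that exceeded the other 7 arrays the most in glioma 58 were Doc2g, Eomes, Sp8, Tbx21 and Cdhr1, all members of this list. Doc2g, a gene of mitral and tufted cells, was at 10.11 in glioma 58, against 4.57 in glioma 38, 4.21 in glioma 45 and 4.46 to 4.90 in the cortices. Eomes and Tbx21, transcription factor genes of the same projection neurons, were at 9.69 and 8.08 in glioma 58 and at no more than 4.66 and 3.62 in the cortices. Cdhr1, a protocadherin gene of mitral cells and photoreceptors, was at 11.39 in glioma 58 and at most at 7.12 in the cortices. Sp8, a factor gene of olfactory bulb interneurons, was at 9.62, against at most 4.76 in the cortices. Th, the dopamine synthesis gene of periglomerular neurons, was at 10.60 in glioma 58, but also at 9.38 in cortex 30, so that it does not set the glioma apart as clearly. Dlx1, a factor gene of inhibitory neurons, was at 11.12 in glioma 58, against 5.99 and 5.71 in gliomas 38 and 45 and 6.65 to 8.17 in the cortices. Leaving out glioma 58 turned the mean difference of Cdhr1 and Dlx1 between neuron-rich gliomas and cortex to -2.34 and -1.72, both past the test. The labels give no site for any glioma, and where in the brain the sample of array 58 was taken was not tested.

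**Figure D2:**
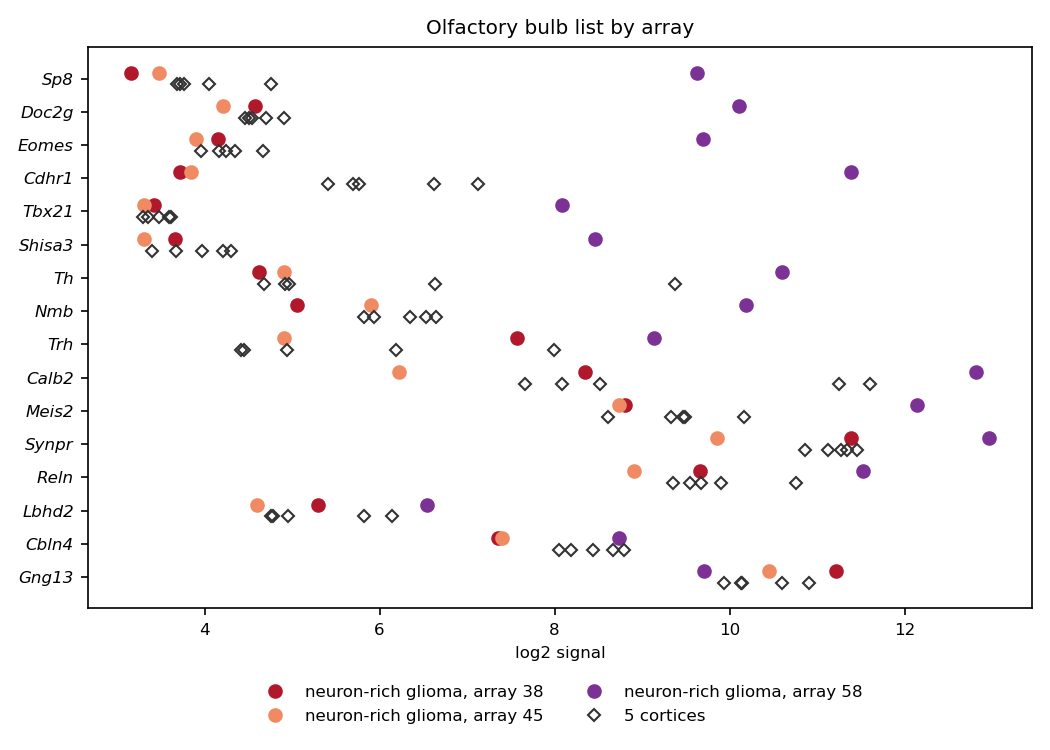
Log2 signal (x axis) of the 16 measured genes of the olfactory bulb list in the 3 neuron-rich gliomas (filled circles) and the 5 cortices (open diamonds). Glioma 58 lies above every cortex for 14 of the 16 genes, while gliomas 38 and 45 lie among or below the cortices for most of them.

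Cdkn2a, Ccnd1 and several other G1 regulators were far above cortex in all 3 gliomas. Cdkn2a was at 9.46, 9.54 and 7.08 in gliomas 38, 45 and 58, against 3.93, 4.62, 4.07, 3.83 and 4.47 in cortices 30 to 34. The groups were far apart, with a log2 difference of 4.51 (SE 0.54) that is a lower bound, since every cortex was below the array medians. The 19 other gliomas lay higher again, from 10.78 to 12.53, and the 13 glioma cell lines reached 12.46. Ccnd1, the gene of cyclin D1 that drives entry into S phase, was at 13.17, 13.41 and 11.004 in the gliomas, against 8.68 to 9.41 in the cortices, a difference of 3.47 (SE 0.50). In gliomas 38 and 45 it was within the range of the other gliomas, 11.47 to 13.86, and in glioma 58 just below it. Myc was at 8.18, 8.63 and 7.04 in the gliomas, against 5.55 to 6.05 in the cortices, and Cdk4, the kinase partner of cyclin D1, was at 9.67, 9.40 and 8.58, against 7.98 to 8.19. Cdkn1a, the cell cycle inhibitor gene that is a known target of p53, was at 10.16, 11.28 and 10.44 in the gliomas, against 7.51 to 8.93 in the cortices, so that it too lay above every cortex. Cdkn1c, an inhibitor gene of quiescent cells, went the other way, at 5.39, 5.84 and 6.55, against 7.003 to 7.45.

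A linear model fitted with limma over the 8 arrays served to set the size of a difference against the spread. Of 18193 genes, 312 (1.71%) were higher and 277 (1.52%) lower in neuron-rich gliomas at an adjusted p under 0.05, and 4162 had an unadjusted p under 0.05. All 3 gliomas were above the highest cortex for 1290 genes (7.09%) and below the lowest for 1489 (8.18%). The gliomas were chosen on this same contrast, so that passing is used as a description and nothing is read from the share that passed. The counts also rested on single arrays. Without glioma 58 they were 1880 higher and 2285 lower, and with any single cortex left out they were between 24 and 91 higher and between 20 and 110 lower. For this reason the signals of single arrays are given throughout. Of 23 measured G1 regulators, 8 passed higher, among them Cdkn2a, Ccnd1, Cdkn1a, Myc, Cdk4 and Cdkn2c, and 1 lower, Cdkn1c (median difference 0.87, against -0.05 over all genes).

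**Figure D3:**
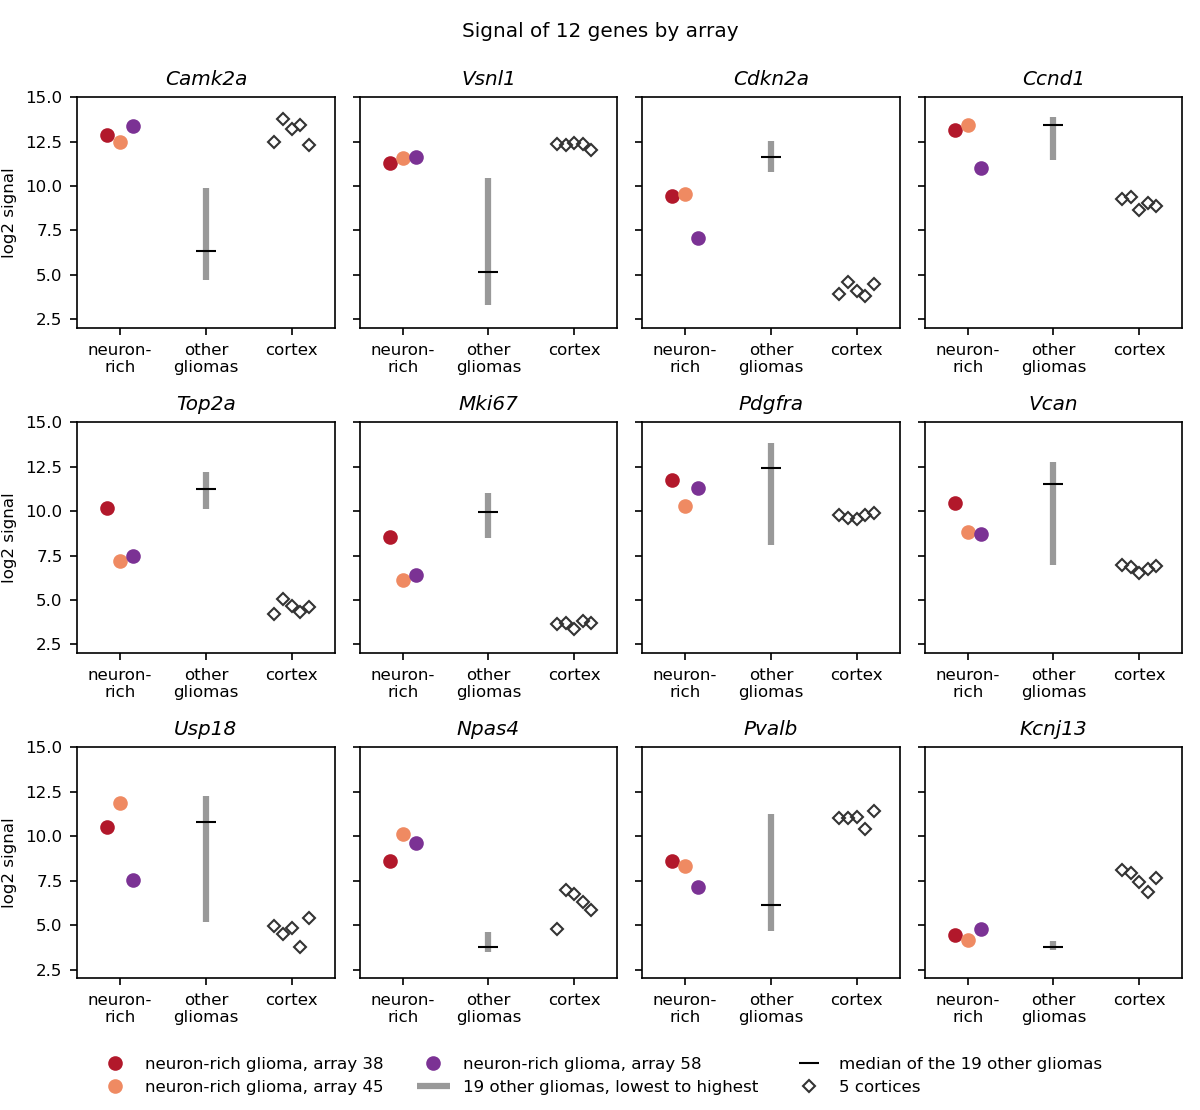
Log2 signal (y axis) of 12 genes in the 3 neuron-rich gliomas (filled circles), the 19 other gliomas (grey bar from lowest to highest, with the median) and the 5 cortices (open diamonds). Camk2a of the neuron-rich gliomas overlaps the cortices, Cdkn2a (9.46, 9.54 and 7.08) lies between the cortices and the other gliomas, and Npas4 is higher in the neuron-rich gliomas than in all other arrays shown.

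Genes of DNA replication and mitosis were above cortex in all 3 gliomas, and much further in glioma 38. Many of these genes are turned on together in dividing cells through short sequences in their promoters, the E2F site, the CCAAT box bound by NF-Y and the cell cycle homology region. The promoters of Top2a, the topoisomerase that untangles DNA before division, and of Ube2c, the ubiquitin-conjugating enzyme of mitotic exit, are shown as examples because both genes were among the highest in the gliomas. They are the 250 bases before the gene start in RefSeq on build GRCm38.p6, with matches on either strand in capitals. The letters searched were CCAAT for the NF-Y box, and TTTGAA or else TTCGAA for the homology region. Neighbouring matches may overlap.
Top2a, chr11:99024190-99024439, minus strand: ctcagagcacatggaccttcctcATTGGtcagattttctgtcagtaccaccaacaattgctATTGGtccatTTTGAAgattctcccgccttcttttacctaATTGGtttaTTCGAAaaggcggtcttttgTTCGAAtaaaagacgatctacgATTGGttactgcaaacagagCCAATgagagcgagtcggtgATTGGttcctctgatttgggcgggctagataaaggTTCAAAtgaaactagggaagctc
Ube2c, chr2:164769679-164769928, plus strand: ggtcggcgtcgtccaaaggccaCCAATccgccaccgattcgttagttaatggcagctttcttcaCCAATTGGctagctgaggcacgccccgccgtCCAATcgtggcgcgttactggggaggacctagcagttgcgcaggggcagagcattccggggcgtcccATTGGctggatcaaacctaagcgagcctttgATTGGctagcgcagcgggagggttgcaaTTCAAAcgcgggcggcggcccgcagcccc
Of the 88 measured cell cycle genes, 75 had a promoter in the RefSeq table used, and 65.3% of these held CCAAT, against 34.5% of 27025 genes. TTTGAA or TTCGAA was held by 25.3%, against 17.4%, and GCGGGAA, a form of the E2F site, by 9.33%, against 3.84%. Of 22 interferon response genes with a promoter, 27.3% held TTTGAA or TTCGAA, so that share was not particular to cell cycle genes. A match is a description of letters and not a bound site.

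Top2a was at 10.18, 7.18 and 7.495 in gliomas 38, 45 and 58, against 4.23, 5.06, 4.67, 4.33 and 4.63 in cortices 30 to 34. Ube2c was at 10.61, 7.30 and 6.84 in the gliomas, against 3.36 to 4.66 in the cortices. When its probe sets were averaged, Top2a differed by 1.396 in place of 3.70 and did not pass. Both genes were above every cortex in every neuron-rich glioma, and glioma 38 alone reached the range of the other gliomas, 10.09 to 12.18 for Top2a and 9.92 to 12.67 for Ube2c. Mki67, which encodes the Ki67 antigen, was at 8.53, 6.11 and 6.42, against 3.36 to 3.81 in the cortices. Rrm2, the ribonucleotide reductase subunit that supplies DNA building blocks, was at 9.23, 6.90 and 6.96, against 4.05 to 4.51. Hmgb2, a chromatin protein gene of dividing cells, was at 10.42, 9.38 and 8.85, against 6.09 to 6.59, with a difference of 3.19 (SE 0.31), the cortex being above the array medians here. The mitosis score over 51 genes was 3.24, 1.04 and 1.16 in gliomas 38, 45 and 58, against -0.06 to 0.12 in the cortices and 3.83 to 5.32 in the other gliomas. The replication score over 37 genes was 1.93, 0.87 and 0.87, against -0.10 to 0.07 in the cortices and 2.42 to 4.403 in the other gliomas. In all 3 gliomas the scores were therefore between the cortices and every other glioma. Of the 88 cell cycle genes, 81 were above the highest cortex in glioma 38, 65 in glioma 45 and 69 in glioma 58, where 25.8%, 27.4% and 25.9% of all genes were. For 59 genes this held in all 3 gliomas. In the limma fit, 27 passed higher and 0 lower. The count was 59 without glioma 58, 25 without glioma 38 or glioma 45, and between 1 and 3 without any single cortex.

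On a linear scale the excess of each gene over cortex was set against the mean excess of the 19 other gliomas, which places cortex at 0% and the other gliomas at 100%. This was done for genes whose mean in the other gliomas was at least 2-fold that of cortex, and it is no estimate of the share of tumor cells. For 48 mitosis genes the median was 35.6% in glioma 38 (quartiles 28.8 to 42.1%), 4.17% in glioma 45 (2.38 to 5.35%) and 4.26% in glioma 58 (3.12 to 6.58%). For 33 replication genes it was 25.2%, 7.76% and 6.10%. Glioma 38 was thus above the others in both lists, and gliomas 45 and 58 were close to each other. Cdkn2a stood at 20.4%, 21.5% and 3.47%, and Ccnd1 at 95.5%, 114.7% and 16.7%. In glioma 45, then, Cdkn2a and Ccnd1 were far closer to the other gliomas than Top2a (4.82%) or Mki67 (5.44%), whereas in glioma 58 Cdkn2a, Top2a (6.23%) and Mki67 (6.98%) were all near cortex on this scale. Vim, an intermediate filament gene of progenitors and reactive glia, was at 117.0%, 148.0% and 17.4%.

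**Figure D4:**
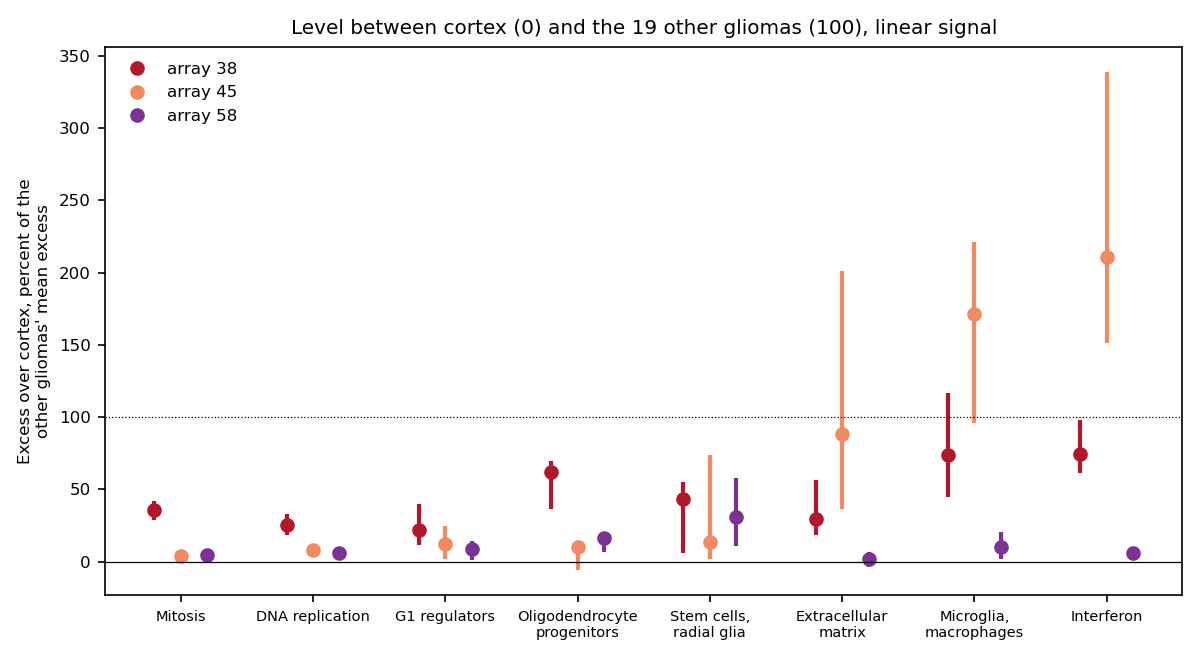
Excess of linear signal over the cortex mean, in percent of the mean excess of the 19 other gliomas (y axis), for 8 gene lists in gliomas 38, 45 and 58. Points are medians over the genes of a list and bars run from the lower to the upper quartile, which shows glioma 38 at 35.6% and gliomas 45 and 58 at 4.17% and 4.26% for mitosis genes, and glioma 45 at 210.8% for interferon genes.

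Genes of oligodendrocyte progenitors and of neural stem cells were above cortex in part. Vcan, a matrix proteoglycan gene of these progenitors, was at 10.47, 8.81 and 8.74 in gliomas 38, 45 and 58, against 6.54 to 6.94 in the cortices, a difference of 2.56 (SE 0.37). It was 0.89 and did not pass when its probe sets were averaged. Pdgfra, the receptor gene for platelet-derived growth factor that marks oligodendrocyte progenitors, was at 11.73, 10.29 and 11.32 in the gliomas, against 9.80, 9.62, 9.55, 9.79 and 9.90 in cortices 30 to 34. It was above every cortex in each glioma, the least in glioma 45, and its place between cortex and the other gliomas was 50.5%, 7.98% and 34.03%. Cspg4, the NG2 proteoglycan gene, was at 8.99, 7.89 and 7.28, against 6.15 to 6.43 in the cortices, and Pcdh15 was at 7.36, 7.20 and 7.49, against 5.76 to 6.32. Olig2, the lineage factor gene, was at 10.21, 8.41 and 8.85 in the gliomas, against 6.97 to 8.45 in the cortices. Glioma 45 overlapped cortex 30, and the gene did not pass. Of 20 measured progenitor genes, 4 passed higher and 0 lower (median difference 1.01), where 1.71% and 1.52% of all genes did. In gliomas 38, 45 and 58, 17, 10 and 15 were above the highest cortex, where 25.8%, 27.4% and 25.9% of all genes were. Without cortex 31, 32 or 33, Pcdh15 alone of the 4 still passed, with differences of 1.24, 1.18 and 1.30.

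Among 26 stem cell and radial glia genes, 5 passed higher, Vim, Ezh2, Sox4, Fabp7 and Id3, and 0 lower (median difference 0.37). Over all genes, 1.71% passed higher and 1.52% lower. Ezh2, a histone methyltransferase gene of dividing progenitors, was at 9.30, 7.68 and 7.90, against 5.35 to 6.03 in the cortices. Sox4, a factor gene of immature neural cells, was at 11.63, 11.65 and 12.44, against 9.49 to 9.96, and was thus highest in glioma 58. Fabp7, the lipid-binding protein gene of radial glia, was at 13.24, 11.43 and 12.29, against 9.92 to 10.84. For Fabp7 the place between cortex and the other gliomas was 79.0%, 13.7% and 35.1%, so that glioma 58 was above glioma 45 for this gene. Of 24 neuroblast genes, 1 passed higher, Marcksl1, at 11.45, 10.52 and 11.41 in gliomas 38, 45 and 58, against 9.71 to 10.25 in the cortices, and 1 lower.

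Interferon response genes had the highest score of the 36 lists in gliomas 38 and 45. These genes are switched on by interferons through a promoter element bound by the STAT and IRF factors. The promoter of Ifit1, which encodes an RNA-binding antiviral protein, is shown because it holds this element, here searched on either strand as GAAA, then any 2 bases, then GAAA, and given in capitals, in the 250 bases before the gene start in RefSeq on build GRCm38.p6.
Ifit1, chr19:34640639-34640888, plus strand: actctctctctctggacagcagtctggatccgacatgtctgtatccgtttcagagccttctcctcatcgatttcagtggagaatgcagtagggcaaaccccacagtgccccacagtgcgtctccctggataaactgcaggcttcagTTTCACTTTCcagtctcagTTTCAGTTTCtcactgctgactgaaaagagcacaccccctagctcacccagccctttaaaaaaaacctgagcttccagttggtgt
Of 22 interferon genes with a promoter in the table, 54.5% held it, against 3.04% of 27025 genes. A match is again a description. Ifit1 was at 9.69, 11.34 and 7.31 in gliomas 38, 45 and 58, against 5.64, 5.24, 5.91, 5.28 and 5.99 in cortices 30 to 34. Usp18, which encodes a protease that dampens interferon signalling, was at 10.53, 11.85 and 7.54 in the gliomas, against 3.75 to 5.42 in the cortices, a fitted difference of 5.28 (SE 0.85) that is a lower bound, as the cortices were within or below the range of the array medians. Cxcl10, a chemokine gene that attracts T cells, was at 10.66, 10.08 and 6.11, against 3.86 to 4.93. Each of these was above every cortex in all 3 gliomas, and the lowest in glioma 58. Ifi27l2a, Oasl2, Ccl5, Rtp4 and Iigp1 were likewise among the 10 largest differences. The score of 31 interferon genes was 3.30, 4.72 and 0.86 in gliomas 38, 45 and 58, against -0.18 to 0.29 in the cortices and 0.05 to 5.13 in the other gliomas. Of the 31, 10 passed higher and 0 lower (median difference 2.85), where 1.71% and 1.52% of all genes did. In gliomas 38, 45 and 58, 30, 31 and 25 were above the highest cortex, where 25.8%, 27.4% and 25.9% of all genes were.

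Genes of microglia and macrophages differed in the same order. Their score over 38 genes was 1.41, 2.03 and 0.30 in gliomas 38, 45 and 58, against -0.21 to 0.24 in the cortices. C1qa, a complement gene of all microglia, was at 12.22, 12.26 and 10.41, against 9.12 to 10.29. The homeostatic microglia gene P2ry12 was at 8.96, 6.95 and 8.92, against 7.86 to 9.10 in the cortices, and was thus below every cortex in glioma 45 only. Lgals3, the galectin-3 gene of activated macrophages, was at 8.89, 11.70 and 6.76, against 4.82 to 6.00. Of the 38 genes, 6 passed higher and 0 lower, where 1.71% and 1.52% of all genes did. Of 15 T cell genes, Ccl5 passed higher, a chemokine gene that other immune cells also make. Cd3e, a subunit gene of the T cell receptor complex, was at 5.12, 4.97 and 4.68 in gliomas 38, 45 and 58, against 4.82 to 5.28 in the cortices, close to or below the array medians in each.

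In glioma 45 the 5 genes that exceeded the other 7 arrays the most were Arg1, Slfn4, Cxcl2, Ifi209 and Adam8. Arg1, the arginase gene of suppressive macrophages, was at 10.73 in glioma 45, against 3.56 and 3.37 in gliomas 38 and 58 and 3.33 to 3.84 in the cortices. Slfn4 was at 10.50, against 3.83 and 3.84 in the other neuron-rich gliomas, and the neutrophil-attracting chemokine gene Cxcl2 was at 9.48, against 3.15 and 2.82. Among the 19 other gliomas the highest values were 7.57 for Arg1, 9.08 for Slfn4, 7.20 for Cxcl2, 8.88 for Ifi209 and 9.23 for Adam8, so that several of these genes were also high there and glioma 45 was above all of them. Of genes chosen after their values were seen, Chil3 was at 8.40, S100a9, which neutrophils carry in bulk, at 8.97, and Hmox1, the heme-degrading enzyme gene, at 12.47 in glioma 45, against at most 3.21, 5.46 and 5.37 in the cortices. In all, 102 genes exceeded the other 7 arrays by more than 2 in glioma 45, 93 in glioma 38 and 39 in glioma 58.

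Reactive astrocyte genes were high in gliomas 38 and 45 and close to the cortices in glioma 58, with a score over 24 genes of 2.68, 3.70 and 0.17, against -0.12 to 0.09 in the cortices. Timp1, a protease inhibitor gene induced in reactive glia, was at 9.29, 11.39 and 4.56, against 4.45 to 5.83. Gfap, the intermediate filament gene of astrocytes, was at 11.05, 11.30 and 9.23, against 8.32, 7.41, 8.10, 8.76 and 8.64 in cortices 30 to 34. It was above every cortex in all 3 gliomas, by little in glioma 58. General astrocyte genes did not follow it. Their score over 28 genes was -0.11, -0.79 and 0.16, against -0.21 to 0.27, and Aqp4, a water channel gene, was at 12.22, 10.95 and 11.01, against 10.33 to 11.18. Extracellular matrix genes were at 0.98, 1.70 and -0.03 in gliomas 38, 45 and 58, against -0.16 to 0.20 in the cortices.

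Immediate early genes, which neurons switch on within minutes of activity, were partly above cortex in the neuron-rich gliomas. Npas4, an activity-dependent factor gene that is close to confined to neurons, was at 8.62, 10.11 and 9.63 in gliomas 38, 45 and 58, against 4.80, 6.95, 6.78, 6.31 and 5.83 in cortices 30 to 34, a difference of 3.32 (SE 0.52). In the 19 other gliomas it was at 3.49 to 4.62, and in the cell lines at no more than 3.93, all below the array medians. Npas4 is thus not a gene whose level in the neuron-rich gliomas lay between the cortices and the other gliomas. Fosb was at 8.24, 7.70 and 8.65, against 5.27 to 7.68, and Junb at 8.83, 9.71 and 9.73, against 6.81 to 8.75, with every glioma above every cortex. For Arc and Egr1 the groups overlapped. Arc was at 9.50, 9.33 and 9.05, against 6.67 and 7.68 in cortices 30 and 34 and 9.24 to 9.96 in the others, and without cortices 30 and 34 the difference was -0.23 for Arc and -0.36 for Egr1. The score of 28 immediate early genes was 0.97, 1.15 and 0.93, against -0.84 and -0.71 in cortices 30 and 34 and 0.39 to 0.67 in the others, and -1.93 to 0.03 in the other gliomas. Of the 28, 5 passed higher and 0 lower, where 1.71% and 1.52% of all genes did. Ccn1 and Atf3, which other cell types also induce under stress, were among the 5. Cortices 30 and 34, the arrays with thalamus and hypothalamus genes, had the lowest scores, and the part of this in the result was not tested.

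Among the genes that passed lower were Pvalb, Syt2, Scn4b, Vamp1 and Nefh, which act in neurons. The gliomas were chosen for neuron genes near cortex, so these calls are a description and not a test. Of the 19 inhibitory and the 34 mostly excitatory neuron genes, 1 and 3 passed lower, where 1.52% of all genes did. Below every cortex in all 3 gliomas were 2 of the 19 and 7 of the 34, where 8.18% of all genes were. Vamp1 was chosen after its values were seen. Pvalb, the calcium buffer gene of basket cells and of some projection neurons, was at 8.60, 8.34 and 7.14 in gliomas 38, 45 and 58, against 11.01, 11.05, 11.10, 10.42 and 11.43 in cortices 30 to 34, a difference of -2.98 (SE 0.34). The groups did not overlap, and Pvalb was lowest in glioma 58, where Gad1 was highest. Syt2, the fast calcium sensor gene of synaptic vesicles, was at 4.24, 4.58 and 4.05, against 6.95 to 8.92, and Scn4b, a sodium channel subunit gene of rapid firing, was at 4.19, 6.65 and 5.99, against 8.20 to 10.17. Vamp1, a synaptic vesicle gene, was at 7.14, 7.52 and 8.03, against 8.72 to 11.04, and Nefh, the heavy neurofilament gene of thick axons, was at 9.02, 8.73 and 8.44, against 9.80 to 11.32. All 5 genes were thus below every cortex in every neuron-rich glioma. Camk2a and Slc17a7 overlapped, while Vsnl1 also lay below every cortex. The 5 genes were at their highest in cortex 30 or cortex 34, the cortices with thalamus and hypothalamus genes. Cortices 31, 32 and 33 were above the gliomas as well. Of the other inhibitory neuron genes, Sst and Vip overlapped with the cortices. Sst, of another inhibitory class, was at 11.11, 10.60 and 9.06, against 10.38 to 11.36, and Vip, of a further class, was at 8.79, 9.33 and 9.93, against 7.43 to 10.06.

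Of 23 mature oligodendrocyte genes, 0 passed higher and 2 lower, and 11 were below every cortex in all 3 gliomas. Over all genes, 1.71% passed higher and 1.52% lower, and 8.18% were below every cortex. The score of the 23 genes was -1.53, -0.88 and -0.95, against -0.79 to 0.65 in the cortices. Gpr37, a receptor gene of myelinating cells, was at 7.38, 7.87 and 8.35, against 9.48 to 10.86. Mbp, the abundant myelin gene, was at 12.89, 13.37 and 13.45, against 13.39 to 13.92, with an overlap. Of 19 choroid plexus and ependyma genes 2 passed lower, and of 17 meninges genes 3. Kcnj13, a potassium channel gene of choroid plexus, was at 4.44, 4.15 and 4.78, against 6.86 to 8.12, and Ogn, a proteoglycan gene of meningeal fibroblasts, was at 4.11, 4.03 and 4.87, against 6.44 to 7.32. Kl, the klotho gene of choroid plexus, was at 4.93, 3.82 and 3.59, against 5.53 to 7.96. The other genes among the 10 largest differences in this direction were Sgpp2, Tmem267, Lgi3, Mcf2 and Slc6a20a, with differences between -3.29 and -2.70. The score of 19 choroid plexus and ependyma genes was -1.37, -1.30 and -1.49 in the gliomas, against -1.54 in cortex 33 and -0.22 to 0.68 in the other cortices. These are genes of tissue that lies beside the cortex, and their part in the other genes that were lower was not tested.

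A run of neighbouring genes on chromosome 7 was above cortex in glioma 38 and not in gliomas 45 and 58, and another was above cortex in all 3. They were found after the values were seen, the order of the genes was taken from RefSeq, and they are mRNA levels that say nothing directly about DNA copies. Over windows of 11 neighbouring genes with a mean signal above 6 in the gliomas or the cortices, the highest median difference from cortex in glioma 38 was 3.01, from Zfp27 to Polr2i, where the 99th percentile of 10990 windows was 0.83. The run reached from Zfp84 to Gramd1a. Its 43 genes had a median difference from the cortex mean of 2.39 in glioma 38, against -0.18 in glioma 45, -0.01 in glioma 58 and -0.05 to 0.05 in the cortices. In glioma 38, 40 of the 43 were above the highest cortex, where 25.8% of all genes were. The 16 genes that flank the run had a median of 0.18 in glioma 38. The run holds zinc finger genes such as Zfp568, at 9.73 in glioma 38, against 5.86 and 5.96 in gliomas 45 and 58 and 5.72 to 6.06 in the cortices. It also holds genes with no shared role, among them Polr2i, an RNA polymerase II subunit gene, at 13.02, against 9.96 and 9.72 in the other gliomas of the set and 9.48 to 9.67 in the cortices. Haus5, a mitotic spindle gene, was at 9.84, against 4.89 and 5.86, and 4.26 to 4.82 in the cortices, the largest difference of the run at 5.32. Psenen, a subunit gene of gamma-secretase, was at 13.23, against 11.18 and 10.91, and 10.62 to 11.05 in the cortices. Mag, a myelin gene, Aplp1, a gene of neurons, and Lsr were the 3 genes of the run that were not above the highest cortex in glioma 38. In 18 of the 19 other gliomas the median of the run was between -0.57 and 0.31, and in the glioma of array 46 it was 3.64. Of the 93 genes that exceeded the other 7 arrays by more than 2 in glioma 38, 29 were on chromosome 7, which holds 7.84% of the genes with a known chromosome. Pgpep1l, Tex101, Slc6a5 and Wdr62, 4 of the 5 leading genes of glioma 38, were on it too.

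In glioma 45 the highest window lay on chromosome 11, from Slfn8 to Ccl4, with a median of 3.95, where the 99th percentile was 0.83. In glioma 58 the highest window was the end of chromosome 7 that holds Ccnd1, from Osbpl5 to Tpcn2, with a median of 1.33, where the 99th percentile was 0.50. The 7 genes from Dhcr7 to Ccnd1 had a median difference of 1.33, 1.90 and 1.39 in gliomas 38, 45 and 58, against -0.14 to 0.12 in the cortices. The 9 genes that flank them had a median of 0.46, 1.60 and 0.065. In glioma 45, 8 of these 9 were above the highest cortex, where 27.4% of all genes were. The rise there was thus not confined to the 7 genes. Fadd, the adaptor gene of death receptors, was at 8.57, 8.43 and 7.44 in gliomas 38, 45 and 58, against 5.42 to 5.84 in the cortices. Ppfia1, a scaffold gene of focal adhesions, was at 7.64, 8.77 and 8.33, against 6.10 to 6.58, and LTO1, a ribosome assembly gene, was at 9.01, 9.08 and 8.64, against 7.11 to 7.42. Each of these was above every cortex in all 3 gliomas. The actin-binding gene Cttn differed from the cortex mean by 0.01, 1.85 and 1.33 in gliomas 38, 45 and 58, against -0.28 to 0.17 in the cortices. Ano1, a chloride channel gene, was not above the highest cortex in any of the 3. In the other gliomas the median of these 7 genes exceeded 1 in 12 of 19 and in the cell lines in 11 of 13. The median of the 9 flanking genes exceeded 1 in 10 of 19 and in 8 of 13, so the rise was often not confined to the 7 genes there either. Whether the DNA of either stretch is gained was not tested.

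**Figure D5:**
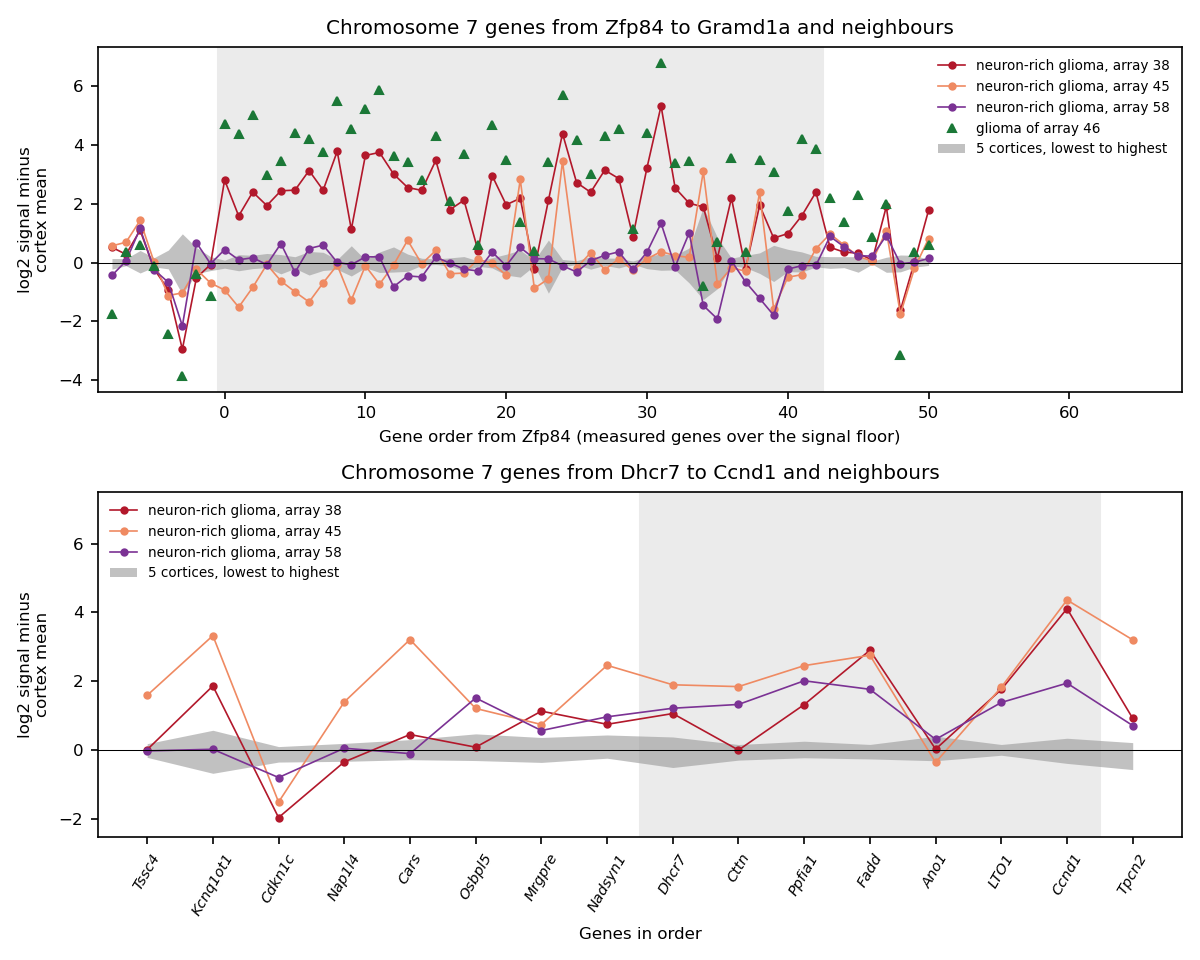
Log2 signal minus the cortex mean (y axis) for measured genes in chromosome order (x axis), around the run from Zfp84 to Gramd1a (top) and around Ccnd1 (bottom), with the runs shaded. Lines are gliomas 38, 45 and 58, the dark band is the range of the 5 cortices and triangles (top) are the glioma of array 46, which lies with glioma 38 (medians 3.64 and 2.39) over the top run.

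Of 23 known p53 target genes, 2 were above and 1 below every cortex in all 3 gliomas. Over all genes 7.09% and 8.18% were, so nothing is read from these counts. Of other genes that the study names, Nf1, Olig2, Rictor, Pik3ca, Idh1 and Idh2 overlapped with cortex. Others, among them Gfap, Mki67, Pdgfra, Ezh2, Ccnd1, Myc and H3f3a, lay above every cortex in all 3 gliomas. Apart from Cre, the genotypes of these mice alter p53 alone. Of 23 known p53 target genes, 0 passed, where 3.24% of all genes did, so that nothing is read from the count, and the median difference was -0.06. Btg2, an antiproliferative gene, was at 8.78, 9.68 and 10.41 in gliomas 38, 45 and 58, against 7.81 to 8.67 in the cortices, and Fas, a death receptor gene, was at 6.22, 5.69 and 4.96, against 4.42 to 4.88. Both were above every cortex without passing. For Fas, glioma 58 and all cortices lay below the array medians, where signals cannot be told from background. Cdkn1a was counted among the G1 regulators and was higher. Mdm2, the p53 ligase gene, was at 8.65, 8.84 and 8.77 in gliomas 38, 45 and 58, against 8.60 to 8.88 in the cortices. Nf1, the Ras regulator gene, was at 6.77, 6.44 and 6.88, against 6.69 to 6.99. Rictor, of the mTOR complex 2, was at 8.14, 8.40 and 9.13, against 8.79 to 9.05, and Pik3ca, the lipid kinase gene, was at 9.62, 9.37 and 10.51, against 10.13 to 10.24. Idh1 and Idh2, the isocitrate dehydrogenase genes, overlapped with the cortices, with Idh1 at 10.09, 9.42 and 9.77, against 9.48 to 9.86. H3f3a, a gene of histone H3.3, was at 6.03, 6.36 and 5.96, against 4.92 to 5.54, and passed higher. Its signals were dim, with the cortices close to or below the array medians. The score of 21 genes of the PI3K pathway was -0.15, -0.19 and 0.18, against -0.11 to 0.09. Receptor and growth factor genes, hypoxia genes and cholesterol synthesis genes had median differences of 0.08, 0.14 and -0.15.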

How the data were processed

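RNA of 40 mouse samples was hybridised to Affymetrix mouse genome arrays. The authors deposited log2 signals that they had background-corrected, quantile-normalized and summarised by the robust multi-array method. That the values are log2 follows from their range of 2.0 to 14.47. Since quantiles were equalised between arrays, differences are relative to all genes. Of 45101 probe sets, 64 controls were left out, and 34945 with 1 gene symbol in the platform annotation gave 18193 genes, each read from its brightest probe set on average, with no filter on dim signals. Some genes are not reported here. Gene order came from RefSeq on GRCm38.p6, and no build is given for the array annotation in the sources used here.

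The 3 neuron-rich gliomas were compared with the 5 cortices by limma (version 3.58.1, R 4.3.3), without covariates, on these 8 arrays, with p-values adjusted by Benjamini-Hochberg over all genes and a threshold of 0.05. The procedure was tested on simulated data. Members and the 36 gene lists were chosen with earlier results of these data known. Genes were named as the markers, the 10 largest non-overlapping differences in each direction among genes that passed and lie outside the neuron lists, up to 3 members of a list, genes the study names, and the 5 genes most apart in each glioma. All others were chosen after their values were seen. Nothing in the labels ties the arrays to separate animals, so the spread may be technical in part, and few arrays limit how precise the values are. Alternatives changed the probe set rule, the filter, the scaling (cyclic loess), the weights, the moderation, the arrays in the fit, the test, the threshold and the cortices used.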

Additional observations from a re-analysis of the deposited data

Results flagged for a closer look

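In 14 of 216 gene levels and list scores checked, 1 cortex lay far from the other 4, where chance gives about 1 in 20. Cortex 34 was low for Vsnl1 (12.05, others 12.31 to 12.41), Neurod6 (5.63, others 8.87 to 9.97), Cdkn1c (7.003, others 7.404 to 7.45), Tpcn2 (4.47, others 5.06 to 5.25) and the blood score (-0.18, others 0.02 to 0.07), and high for the striatum score (1.29, others -0.50 to -0.10). Cortex 30 was low for Ccl5 (4.675, others 4.90 to 4.96), Tex101 (3.45, others 3.70 to 3.75), Sox4 (9.49, others 9.89 to 9.96) and the microglia gene P2ry12 (7.86, others 8.82 to 9.10). Cortex 33 was low for Ube2c (3.36, others 4.35 to 4.66), Gzmb (3.19, others 3.98 to 4.10) and the choroid plexus gene Ttr (4.82, others 11.75 to 13.27), and high for Timp1 (5.83, others 4.45 to 4.65).

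In the glioma of array 46, which is not part of the comparison, the genes from Zfp84 to Gramd1a on chromosome 7 had a median difference from cortex of 3.635, against -0.05 to 0.05 in the cortices.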

How the results depend on the processing

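The counts of genes that passed moved with the setting. They were 312 higher and 277 lower, with 27 cell cycle genes higher, and became 974, 825 and 56 with array weights, 953, 925 and 50 at an adjusted p under 0.1, 43, 55 and 1 by the methods' t-test after adjustment, and 1680, 2046 and 57 by the same test unadjusted. With only the Cre-positive cortices they were 1, 1 and 0, and without cortices 30 and 34, a setting chosen after seeing the data, 4, 10 and 0. Leaving out 1 array gave 24 to 1880 genes higher, 20 to 2285 lower and 1 to 59 cell cycle genes higher. The other settings stayed within 1.5 times the main counts, but of the 309 genes higher and 254 lower with all 40 arrays in the fit only 126 and 77 were shared with the main calls. Of 108 list scores of single gliomas, 32 moved when probe sets were averaged and 17 with cyclic loess. When they were averaged, Top2a (1.396), Vcan (0.89), Cspg4, Rtp4, Gfap and Ccn1 no longer passed, and Rictor, which passed in neither, changed sign to 0.21. Without glioma 58, Cdhr1 was at -2.34 and Dlx1 at -1.72, while the other arrays left out gave at most 1.495 and 0.987. No paired analysis was possible because the groups share no replicate numbers. The cause of these changes was not tested. Signals below the array medians limit what can be read from dim genes.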
